A study of Mus musculus with 38 samples.

Results

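St14, Tent5c and Mpeg1 are 3 protein-coding genes of 48709 in the hippocampal count tables, and they were chosen by measured values of these mice, because all 3 were higher in APPPS1ΔE9 mice than in wild-type (WT) mice. Differences between genotypes are therefore given for these genes as a description and without a test. The tests below concern anle138b against placebo, the dependence of that difference on genotype, and age in WT mice. The dependence on genotype is also the difference between genotype contrasts that chose the genes, so it is not independent of the choice. The tests of anle138b and of age compare groups of mice whose values also entered those genotype contrasts. They are therefore not independent of the choice either, and how far the choice shifts their values was not tested.

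Whole hippocampus was taken from 38 C57BL/6 mice in 8 groups, and polyadenylated RNA was sequenced from each mouse separately. APPPS1ΔE9 mice carry transgenes for a mutant amyloid precursor protein (Swedish mutation) and for presenilin 1 without exon 9, driven by the prion protein promoter, and form amyloid plaques with age. WT littermates served as controls. Anle138b, a small molecule made to modulate the aggregation of disease proteins, was given in chow at 2 g per kg food for 4 months, and placebo mice had chow without it. The pre-plaque group was fed from 2 months and analysed at 6 months of age, with 4 WT placebo, 4 WT anle138b, 4 APPPS1ΔE9 placebo and 4 APPPS1ΔE9 anle138b mice. The post-plaque group was fed from 6 months and analysed at 10 months, with 5 WT placebo, 5 WT anle138b, 5 APPPS1ΔE9 placebo and 7 APPPS1ΔE9 anle138b mice.

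St14 encodes matriptase, a membrane-anchored serine protease of epithelia that is held in check by the inhibitors encoded by Spint1 and Spint2 and that activates other proteases such as prostasin (Prss8). Tent5c, formerly Fam46c, encodes a cytoplasmic poly(A) polymerase that lengthens the tails of selected mRNAs and is best known from plasma cells. Mpeg1 encodes perforin-2, a pore-forming protein of macrophages and microglia that acts on engulfed bacteria.

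St14 (ENSMUSG00000031995) lies on the minus strand of chromosome 9 at 31089402 to 31131853 of GRCm38, with 16 exon blocks. Tent5c (ENSMUSG00000044468) lies on the minus strand of chromosome 3 at 100451628 to 100489324, with 5 exon blocks. Mpeg1 (ENSMUSG00000046805) lies on the plus strand of chromosome 19 at 12460779 to 12465283, with 2 exon blocks. The only annotated gene that overlaps one of them is the pseudogene Gm16071 within St14, which shares 0 exon bases with it and had at most 5 counts in a mouse.

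The RefSeq promoter table matched Tent5c and Mpeg1. Their sequences are shown because both genes were higher in APPPS1ΔE9 mice at 10 months while the base composition before their starts differs. Each is printed 5′ to 3′ on the strand of its gene, up to the first annotated start, with matches to the motifs searched in capitals. The Tent5c stretch is chr3:100489325-100489442 (minus strand) and the Mpeg1 stretch is chr19:12460520-12460769 (plus strand), both from GRCm38.p6.
Tent5c: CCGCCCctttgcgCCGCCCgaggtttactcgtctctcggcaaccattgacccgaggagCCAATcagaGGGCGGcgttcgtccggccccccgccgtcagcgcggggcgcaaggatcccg
Mpeg1: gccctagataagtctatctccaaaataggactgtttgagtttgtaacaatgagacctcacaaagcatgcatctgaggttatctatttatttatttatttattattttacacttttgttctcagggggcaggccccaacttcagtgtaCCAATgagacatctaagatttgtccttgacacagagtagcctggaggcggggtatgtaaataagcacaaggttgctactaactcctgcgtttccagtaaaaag

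G and C made up 71.2% of the printed Tent5c bases and 40.0% of the printed Mpeg1 bases. The GC box GGGCGG, searched on both strands, matched 7 times in the 300-base Tent5c window and 0 times in that of Mpeg1, and 35.7% of 32851 promoter windows of this length held it. The Tent5c window includes 182 bases after the annotated start and the Mpeg1 window 41. The Tent5c matches from base 140 of the window onward lie after that start and are not printed. The CCAAT box CCAAT matched 1 time in each window and was in 37.4% of all windows. The TATA box TATAAA (13.6% of windows), the PU.1 core GAGGAA (28.3%), the IRF element (3.44%) and the AP-1 element TGANTCA (7.81%) had 0 matches in both windows. A match is a stretch of letters and not a measured binding site.

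Each mouse gave between 15847985 and 31895808 counts over genes, with a median of 24530658. Levels below are in CPM, the read count of a gene relative to the total of its library, with totals scaled between libraries by the trimmed mean of M values (TMM). App, which the transgene adds to, had 1506 to 1809 CPM in WT mice and 3228 to 4318 CPM in APPPS1ΔE9 mice, so each library had the level of its labelled genotype. For the 4 pre-plaque WT placebo mice the title and the genotype field of the labels differ. Their App level was 1706 ± 75.4 CPM (SD, n = 4), within the WT range. The study describes male mice, but 12 of 38 mice expressed Xist at 1154 CPM or more and had almost no Y-linked reads, and 11 of these were WT. The 10 markers of hippocampal neurons summed to 5619 to 9272 CPM, and microglial markers were present in every mouse.

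Libraries differed in choroid plexus, the ventricular epithelium next to the hippocampus. The 9 markers of that epithelium, among them Ttr, summed to at least 4019 CPM in 11 mice and to at most 728 CPM in the other 27. High libraries made up 10 of 16 at 6 months and 1 of 22 at 10 months. At 6 months they were 3 of 4 mice in each WT group and in APPPS1ΔE9 mice on anle138b, but 1 of 4 APPPS1ΔE9 mice on placebo. The sequencing lane number in the labels also followed the groups. All 4 pre-plaque APPPS1ΔE9 placebo libraries were on lane 5 and all 4 on anle138b on lane 6, so lane and chow cannot be told apart there. At the same age and chow, no WT library had the lane number of an APPPS1ΔE9 library. Lane and genotype therefore cannot be told apart in any genotype comparison. The limit of 1000 CPM between low and high choroid plexus libraries was set after seeing the values.

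St14 was the lowest of the 3 genes per transcript length. Group means ran from 0.0608 to 0.292 CPM per kb of exon for St14, from 0.595 to 1.36 for Tent5c and from 7.29 to 17.8 for Mpeg1. In counts, St14 had 9 to 66 per mouse, so counting error is a large part of its spread. Tent5c had 66 to 252 counts and Mpeg1 477 to 2544.

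**Figure D1:**
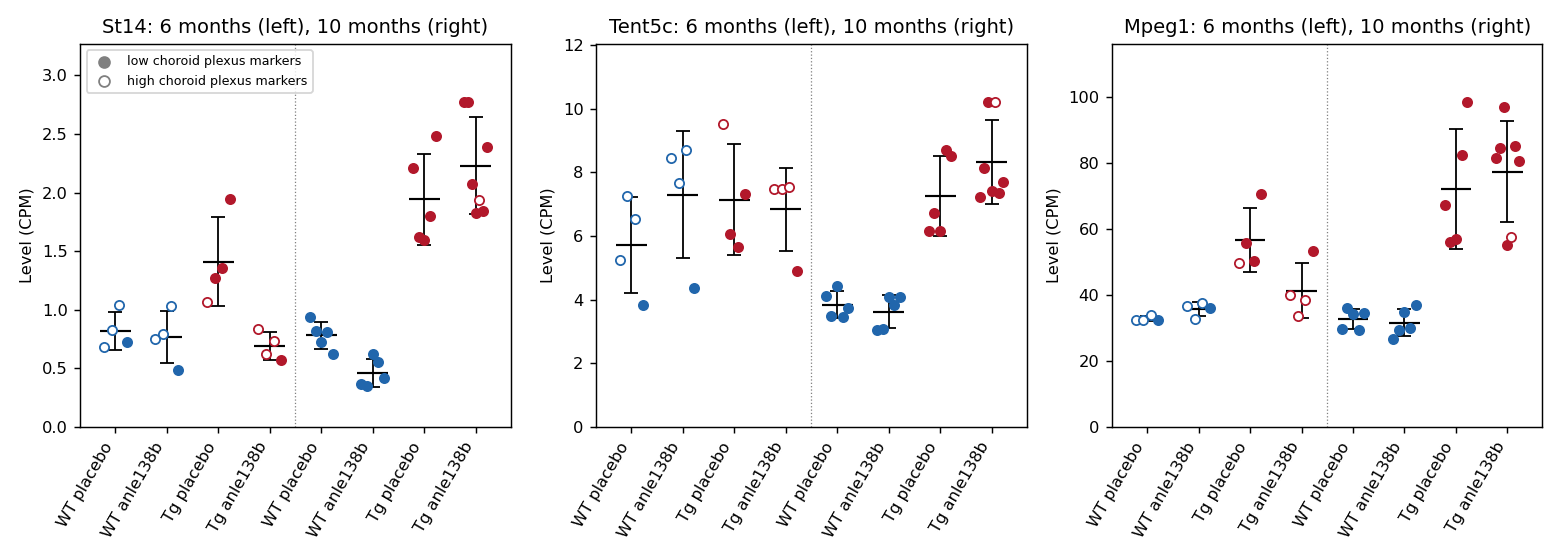
Levels of St14, Tent5c and Mpeg1 in CPM (linear axes from 0) for each mouse, in 4 groups at 6 months (left of the dotted line) and 4 at 10 months. Tg stands for APPPS1ΔE9, lines and bars give mean ± SD, and open points are the 11 libraries high in choroid plexus markers. At 10 months the APPPS1ΔE9 mice lie above every WT mouse on the same chow in all 3 genes. The genes were chosen for this difference, and the share of all genes that separate in this way was not computed.

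Mpeg1 in WT mice stayed within a narrow range. At 6 months the WT placebo mice had 32.5, 32.4, 33.9 and 32.5 CPM and the WT anle138b mice 36.6, 32.8, 37.7 and 36.2 CPM. At 10 months WT placebo mice had 29.8, 36, 34.2, 29.3 and 34.4 CPM, and WT anle138b mice 26.8, 29.3, 34.8, 30.1 and 36.9 CPM. The ranges of these 4 groups overlapped, and their means were 31.6 to 35.8 CPM.

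In APPPS1ΔE9 mice Mpeg1 was higher and more variable. Placebo mice had 49.8, 55.7, 50.2 and 70.5 CPM at 6 months, and anle138b mice 39.9, 33.6, 38.4 and 53.2 CPM. At 10 months placebo mice had 67.2, 56.0, 56.8, 82.5 and 98.3 CPM. The 7 APPPS1ΔE9 mice on anle138b had 55.0 CPM at the lowest, 81.5 at the median and 96.9 at the highest. The lowest APPPS1ΔE9 mouse on placebo was above every WT placebo mouse at both ages, and so were all 10-month APPPS1ΔE9 mice on anle138b against their WT controls. At 6 months on anle138b the genotypes overlapped, with 3 of 4 APPPS1ΔE9 mice above all WT mice.

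As a description, the log2 difference of Mpeg1 between genotypes was 0.79 (SE 0.101) at 6 months on placebo, 0.21 (SE 0.123) at 6 months on anle138b, 1.14 (SE 0.156) at 10 months on placebo and 1.29 (SE 0.146) at 10 months on anle138b, from fits of edgeR's quasi-likelihood model. The 2 ages use different mice and the 2 chows different controls. Genes called higher in APPPS1ΔE9 mice at an adjusted p under 0.1 made up 0.0715% of genes tested at 6 months on placebo, 0.0352% at 6 months on anle138b, 0.324% at 10 months on placebo and 0.694% at 10 months on anle138b. These contrasts chose the 3 genes, so nothing is read from the members' place among them.

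St14 was at 0.352 to 1.04 CPM in WT mice. At 6 months WT placebo mice had 0.68, 0.825, 1.04 and 0.728 CPM and WT anle138b mice 0.753, 0.796, 1.03 and 0.49 CPM. At 10 months WT placebo mice had 0.936, 0.816, 0.73, 0.814 and 0.623 CPM, and WT anle138b mice 0.365, 0.352, 0.623, 0.559 and 0.421 CPM. The last group held the lowest values, and its highest mouse was level with the lowest WT placebo mouse.

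In APPPS1ΔE9 mice on placebo St14 was 1.07, 1.27, 1.36 and 1.95 CPM at 6 months. The lowest of these was just above the highest WT placebo mouse. On anle138b it was 0.835, 0.622, 0.734 and 0.575 CPM, within the range of WT mice on anle138b. At 10 months placebo mice had 2.21, 1.62, 1.6, 1.8 and 2.48 CPM, and the 7 mice on anle138b had 1.83 at the lowest, 2.07 at the median and 2.77 at the highest. Every 10-month APPPS1ΔE9 mouse was above every WT mouse of either age.

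The log2 difference of St14 between genotypes was 0.77 (SE 0.247) at 6 months on placebo and -0.13 (SE 0.266) at 6 months on anle138b. It was 1.31 (SE 0.18) at 10 months on placebo and 2.24 (SE 0.197) at 10 months on anle138b. The mean WT level behind the last value was 0.464 ± 0.121 CPM (SD, n = 5), against 0.784 ± 0.116 CPM (SD, n = 5) in WT placebo mice of that age. The 6-month placebo value was 0.42 with Y-linked expression as a covariate and 0.44 in mice without Xist, where the WT side is 1 mouse with 1.04 CPM.

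Tent5c at 6 months varied within each of the 4 groups. WT placebo mice had 5.24, 7.26, 6.53 and 3.82 CPM, and WT anle138b mice 8.45, 7.68, 8.71 and 4.37 CPM. APPPS1ΔE9 placebo mice had 9.52, 6.06, 5.67 and 7.33 CPM, and APPPS1ΔE9 anle138b mice 7.48, 7.47, 7.53 and 4.89 CPM. The ranges of these 4 groups overlapped throughout.

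At 10 months Tent5c separated by genotype. WT placebo mice had 4.12, 3.5, 4.42, 3.47 and 3.74 CPM, and WT anle138b mice 3.04, 3.09, 4.1, 3.83 and 4.08 CPM. APPPS1ΔE9 placebo mice had 6.17, 6.72, 6.16, 8.7 and 8.52 CPM. The 7 APPPS1ΔE9 mice on anle138b had 7.22 at the lowest, 7.71 at the median and 10.2 at the highest. No WT mouse reached the lowest APPPS1ΔE9 mouse of this age.

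The log2 difference of Tent5c between genotypes was 0.32 (SE 0.209) at 6 months on placebo, -0.09 (SE 0.225) at 6 months on anle138b, 0.91 (SE 0.135) at 10 months on placebo and 1.19 (SE 0.131) at 10 months on anle138b. In libraries low in choroid plexus markers, Tent5c at 6 months was 3.82 CPM in the 1 WT placebo mouse, 4.37 in the 1 WT anle138b mouse, 5.67 to 7.33 in 3 APPPS1ΔE9 placebo mice and 4.89 in the 1 APPPS1ΔE9 anle138b mouse. In high libraries it was 5.24 to 7.26, 7.68 to 8.71, 9.52 and 7.47 to 7.53 CPM in the same order. In each of the 4 groups every high library had more Tent5c than every low one. With low libraries only, the 6-month placebo difference was 0.73, with a single WT mouse that is assumed to vary like the others.

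**Figure D2:**
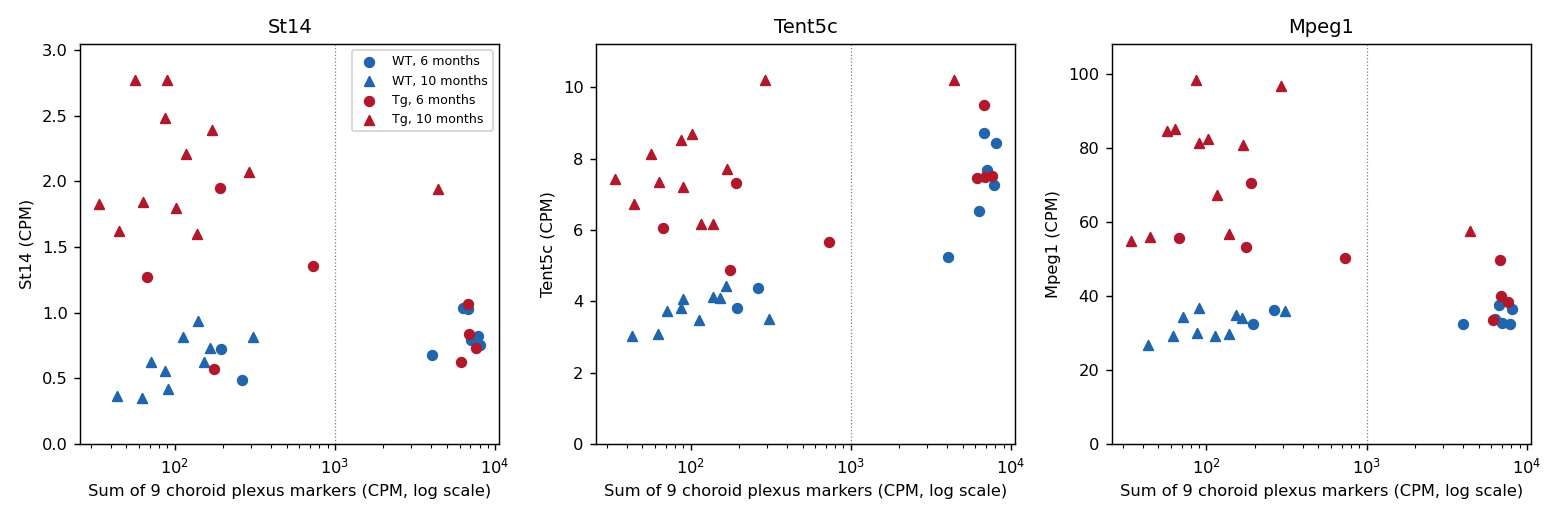
Level of each gene in CPM against the sum of 9 choroid plexus markers in CPM (log scale) for all 38 mice, coloured by genotype (Tg is APPPS1ΔE9) and marked by age, with the limit of 1000 CPM dotted. The high WT libraries at 6 months have 5.24 to 8.71 CPM of Tent5c and the low WT libraries of both ages 3.04 to 4.42 CPM, while Mpeg1 is 32.4 to 37.7 CPM in the high and 26.8 to 36.9 CPM in the low WT libraries.

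Ordered by group mean, all 3 genes were highest in 10-month APPPS1ΔE9 mice on anle138b and lowest in 10-month WT mice on anle138b. For St14 and Mpeg1 the order then ran to 10-month APPPS1ΔE9 placebo mice and 6-month APPPS1ΔE9 placebo mice. For Tent5c the 6-month WT anle138b mice came second, with 7.3 ± 2.0 CPM (SD, n = 4). Of the neighbours in these orders only the St14 pair of 6-month APPPS1ΔE9 placebo and 6-month WT placebo mice had ranges that did not overlap. The genes were chosen for higher values in APPPS1ΔE9 mice, so the genotype part of these orders follows from that choice.

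The first tested question was whether anle138b changed the 3 genes within a genotype. None of the 12 values passed the threshold of an adjusted p under 0.1 in edgeR's quasi-likelihood test. Genes called made up 0.0% of those tested in pre-plaque WT mice, 0.0% in post-plaque WT mice, 0.0529% in pre-plaque APPPS1ΔE9 mice and 0.0% in post-plaque APPPS1ΔE9 mice. The 9 genes behind 0.0529% became 6 to 317 when 1 mouse was left out. In the contrasts with 0 calls, 310 (pre-plaque WT), 212 (post-plaque WT) and 254 genes (post-plaque APPPS1ΔE9) had an unadjusted p under 0.05 in edgeR, and DESeq2 also called 0. With 16766, 16986 and 17110 genes tested, these are fewer than such a limit gives by chance. In pre-plaque APPPS1ΔE9 mice 2233 of 17009 genes tested had an unadjusted p under 0.05 in edgeR, and DESeq2 called 204. There the number is above what such a limit gives by chance.

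St14 in the pre-plaque APPPS1ΔE9 mice had the largest of these differences. All 4 anle138b mice were below all 4 placebo mice, with means of 0.692 ± 0.117 and 1.41 ± 0.378 CPM (SD, n = 4 each). The share of all genes that separate by mouse in this way was not computed for any chow comparison. The log2 difference was -1.02 (SE 0.241, 95% interval -1.61 to -0.44), and edgeR gave an adjusted p of 0.28. The edgeR adjusted p was 0.0759 without a filter on low counts and 0.0647 without APPPS1ΔE9 placebo replicate 1, and it ran from 0.0647 to 0.913 over 17 alternatives. High choroid plexus libraries were 1 of 4 on placebo and 3 of 4 on anle138b. With those markers as a covariate the difference was -0.96. Among low libraries only it was -1.4 (3 against 1 mouse), and the highest adjusted p of the alternatives came from that fit.

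Mpeg1 in the same mice was 41.3 ± 8.39 CPM on anle138b and 56.6 ± 9.69 CPM on placebo (SD, n = 4 each), and 3 of 4 anle138b mice were below all placebo mice. The log2 difference was -0.46 (SE 0.166, interval -0.86 to -0.05), with an adjusted p of 0.348 in edgeR. The exception, replicate 4 with 53.2 CPM, was the 1 low choroid plexus library on anle138b. Among low libraries only the difference was -0.14 (3 against 1 mouse). Tent5c differed by -0.07 (SE 0.183, interval -0.52 to 0.38, edgeR adjusted p = 0.883), by -0.34 with choroid plexus markers as a covariate and by -0.38 among low libraries.

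In post-plaque APPPS1ΔE9 mice the groups on both chows overlapped for all 3 genes. The log2 difference was 0.2 (interval -0.17 to 0.57) for St14, 0.2 (interval -0.09 to 0.49) for Tent5c and 0.1 (interval -0.28 to 0.48) for Mpeg1. Each had an edgeR adjusted p of 0.999. In the pre-plaque mice the St14 value was -1.02 with an interval of -1.61 to -0.44, and the difference between the cohorts was not tested.

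In post-plaque WT mice St14 was 0.464 ± 0.121 CPM on anle138b and 0.784 ± 0.116 CPM on placebo (SD, n = 5 each). The log2 difference was -0.73 (SE 0.212, interval -1.22 to -0.24), with an adjusted p of 1.0 in edgeR. No anle138b mouse was above the lowest placebo mouse. The St14 difference was -0.415 within a shared lane number, with 1 placebo mouse. In mice without Xist, 2 on each chow, it was -1.0 (edgeR adjusted p = 0.0926) and that of Mpeg1 -0.33 (edgeR adjusted p = 0.0125), in a fit that called 5550 genes. Over 20 alternatives the adjusted p ran from 0.0926 to 1.0 for St14 and from 0.0125 to 1.0 for Mpeg1. Tent5c differed by -0.08 (interval -0.38 to 0.21) and Mpeg1 by -0.05 (interval -0.28 to 0.17). In pre-plaque WT mice the differences were -0.11 for St14 (interval -0.77 to 0.55), 0.35 for Tent5c (interval -0.26 to 0.96) and 0.13 for Mpeg1 (interval -0.02 to 0.27), and the adjusted p was 1.0 for each in edgeR.

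The second question was whether the chow difference depended on genotype. No gene was called in either cohort by edgeR, which is 0.0% of genes tested at 6 months and 0.0% at 10 months. In these fits 1390 of 17404 and 407 of 17668 genes tested had an unadjusted p under 0.05 in edgeR, and DESeq2 called 22 and 2. The first number is above and the second below what such a limit gives by chance. For St14 the interaction was -0.91 (SE 0.361, adjusted p = 0.618 in edgeR) in the pre-plaque cohort and 0.93 (SE 0.26, adjusted p = 0.989) at 10 months. These values have opposite signs. The interval of the St14 chow difference lay below 0 in APPPS1ΔE9 mice at 6 months and in WT mice at 10 months. These intervals are not adjusted for the number of genes tested, and neither difference passed the threshold.

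For Mpeg1 the interaction in the pre-plaque cohort was -0.57 (SE 0.173, adjusted p = 0.618 in edgeR), and in the post-plaque cohort 0.15 (SE 0.218, adjusted p = 0.989). For Tent5c it was -0.41 (SE 0.341, adjusted p = 0.74 in edgeR) and 0.28 (SE 0.187, adjusted p = 0.989). With choroid plexus markers as a covariate the Tent5c values were -0.71 and 0.16, and in low libraries the pre-plaque Mpeg1 value was -0.3. None of these passed.

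**Figure D3:**
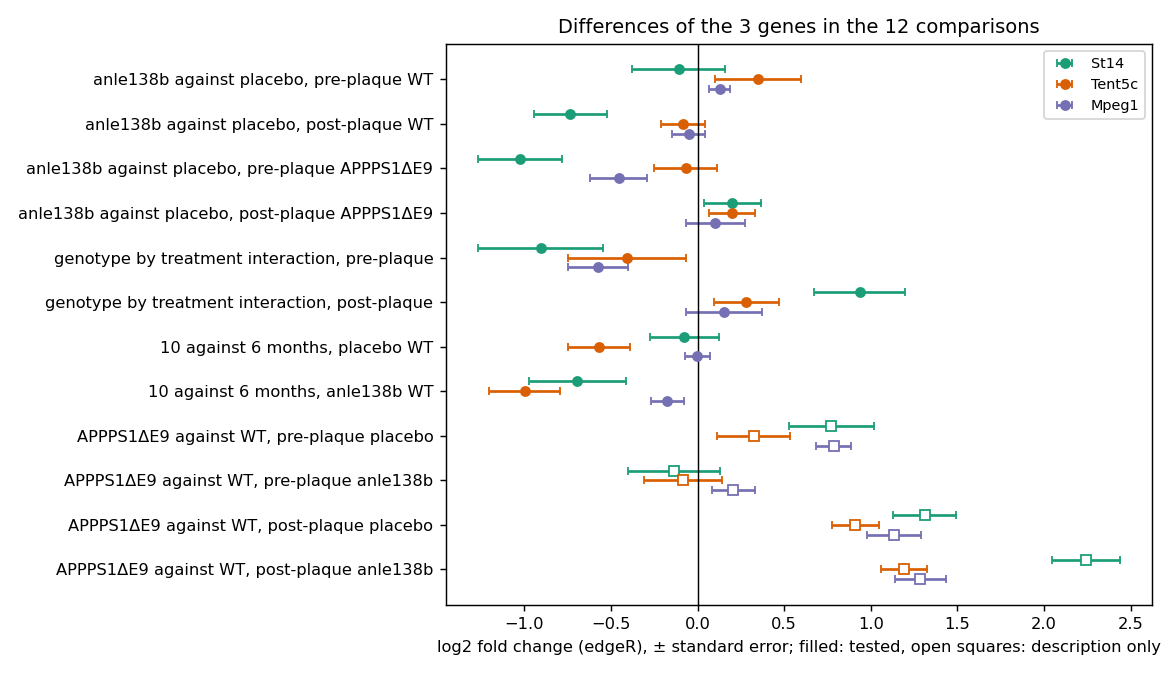
Log2 fold changes of the 3 genes from edgeR with their standard errors in the 12 comparisons. Filled circles are comparisons that were tested and open squares are genotype comparisons given as description. Only Tent5c at 10 against 6 months in WT mice passed the threshold, with values of -0.57 and -1.0.

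The third question was age in WT mice, where 10-month mice were set against 6-month mice on the same chow. The ages are also separate cohorts, so age and cohort cannot be told apart. Tent5c fell in both comparisons. On placebo it was 3.85 ± 0.409 CPM (SD, n = 5) at 10 months and 5.71 ± 1.51 CPM (SD, n = 4) at 6 months, a log2 difference of -0.57 (SE 0.179, adjusted p = 0.0395 in edgeR), and 3 of 5 older mice were below all younger ones. On anle138b it was 3.63 ± 0.527 CPM (SD, n = 5) and 7.3 ± 2.0 CPM (SD, n = 4), a log2 difference of -1.0 (SE 0.205, adjusted p = 0.00863 in edgeR), and all 5 older mice were below all younger ones. Genes called made up 33.4% of those tested on placebo and 28.3% on anle138b, so a call in these contrasts is common. The share of all genes whose older mice all lie on one side of the younger ones was not computed.

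All 9 choroid plexus markers fell with Tent5c in both age comparisons, with a median log2 difference of -4.19 on placebo and -4.86 on anle138b. With those markers as a covariate the Tent5c difference was 0.07 (edgeR adjusted p = 0.892) on placebo and 0.06 (edgeR adjusted p = 0.934) on anle138b. With low libraries only, which leaves 1 younger mouse against 5 older mice, it was 0.01 and -0.27, and no test is drawn from a single mouse. Leaving out WT placebo replicate 2 or 3 of the 6-month mice gave an edgeR adjusted p of 0.13 or 0.108. Over all alternatives, DESeq2 included, the adjusted p ran from 0.00767 to 0.992 on placebo and from 0.000152 to 0.934 on anle138b. Erythroid genes called lower were 2 of 5 tested on placebo and 5 of 5 on anle138b. The part of erythroid cells in the Tent5c difference was not tested.

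St14 did not pass in either age comparison. Its log2 difference was -0.08 (interval -0.55 to 0.4, edgeR adjusted p = 0.817) on placebo and -0.69 (interval -1.36 to -0.03, edgeR adjusted p = 0.11) on anle138b. The second value was called in 4 of 20 alternatives, with adjusted p from 0.0361 to 0.968. Mpeg1 differed by -0.001 on placebo (interval -0.17 to 0.17, edgeR adjusted p = 0.995) and by -0.17 on anle138b (interval -0.4 to 0.05, edgeR adjusted p = 0.24). In APPPS1ΔE9 mice the same ages are given without a test. From 6 to 10 months on placebo the mean went from 1.41 to 1.94 CPM for St14, from 7.15 to 7.26 CPM for Tent5c and from 56.6 to 72.1 CPM for Mpeg1. On anle138b it went from 0.692 to 2.23, from 6.84 to 8.32 and from 41.3 to 77.3 CPM in the same order. For St14 and Mpeg1 all 7 older mice were above all 4 younger ones. How large a share of all genes separates in this way was not computed.

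To see which genes vary with each member from mouse to mouse, the mean of its group was subtracted from each mouse's log2 CPM, and the rest was correlated over 38 mice with each of 18231 other genes. These correlations are a description over mice that share libraries, depth and dissection. Among the genes closest to Mpeg1 were Trem2 (r = 0.875), Vsir (r = 0.872), Ctss (r = 0.87) and Nckap1l (r = 0.863). Ctss encodes a lysosomal protease abundant in microglia, and Trem2 a lipid receptor of microglia. The median r of Mpeg1 was 0.663 with 13 homeostatic microglial genes and 0.527 with 22 plaque-associated microglial genes, beside -0.016 with all genes. It was also 0.458 with 10 genes of hippocampal neurons.

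Tent5c was closest to Vamp8 (r = 0.896), Abca4 (r = 0.886), Abhd2 (r = 0.884), Tcn2 (r = 0.871) and Slc16a6 (r = 0.869). Its median r was 0.745 with the 9 choroid plexus markers, -0.035 with homeostatic and 0.112 with plaque-associated microglial genes. In the 24 low libraries of groups with more than 1 of them, the medians were 0.308, 0.585 and 0.487 in the same order. There the closest genes were Gpr34 (r = 0.902), Myo1f (r = 0.858), C1qb (r = 0.835), Cyp4v3 (r = 0.834) and Itgam (r = 0.828). Gpr34 encodes a microglial receptor, C1qb a chain of complement C1q and Itgam an integrin of myeloid cells. The r of Tent5c with Mpeg1 was 0.103 over all mice and 0.703 in these low libraries. At 6 months only 3 APPPS1ΔE9 placebo mice were among these 24 libraries, and the rest were 10-month mice. Choroid plexus content, age and cohort therefore cannot be told apart in these changes of r.

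Among the genes closest to St14 were Osgin1 (r = 0.694), the antisense RNA gene Gm15347 (r = 0.649), Sgms1 (r = 0.598) and Ccm2l (r = 0.564). Its few counts limit any correlation. Its median r was 0.311 with plaque-associated microglial genes, 0.201 with homeostatic ones, 0.305 with 8 markers of border macrophages and 0.166 with choroid plexus markers. In the low libraries these medians were 0.464, 0.408, 0.416 and 0.257 in the same order. In the low libraries the closest genes were Cd74 (r = 0.787), Gk5 (r = 0.769), H2-Aa (r = 0.754), Gimap8 (r = 0.753) and Ilf2 (r = 0.732). Cd74 and H2-Aa belong to antigen presentation by MHC class II. The r of St14 was 0.392 with Tent5c and 0.37 with Mpeg1.

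**Figure D4:**
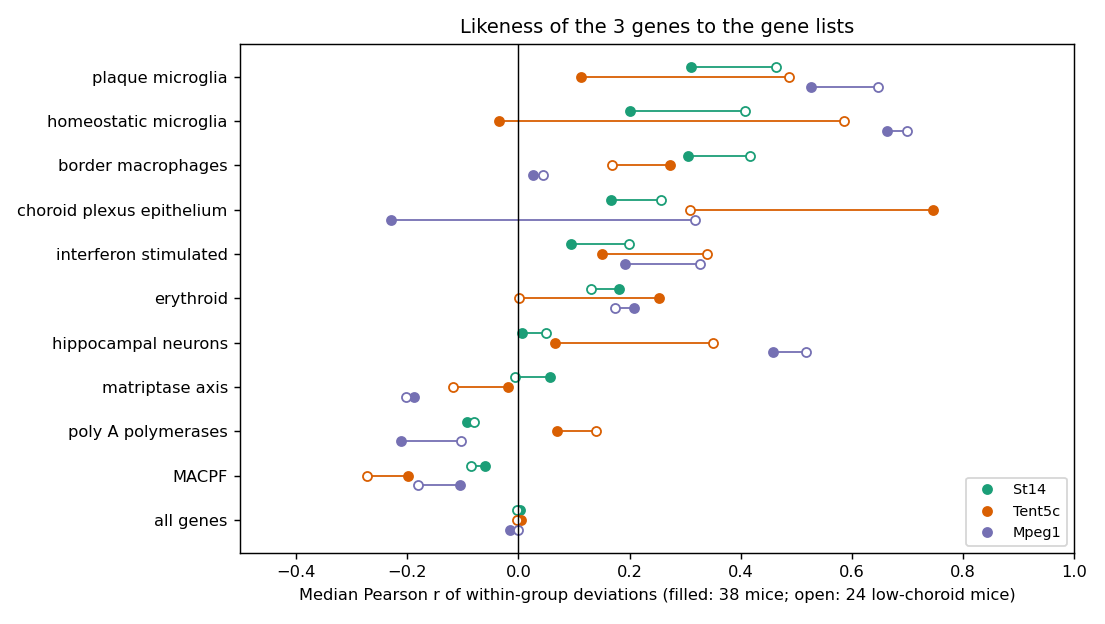
Median Pearson r of each member with the genes of 10 lists and with all genes, computed on within-group deviations of log2 CPM over 38 mice (filled) and over 24 of the 27 mice with libraries low in choroid plexus markers, those in groups with more than 1 such mouse (open). For Tent5c the choroid plexus median goes from 0.745 to 0.308 and the homeostatic microglia median from -0.035 to 0.585. Only 3 of the 24 mice were 6 months old, so age and cohort change along with choroid plexus content.

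Microglial genes were also higher in APPPS1ΔE9 mice, and their part in the levels of the 3 members was not tested. Of 22 plaque-associated genes, 5 were called higher in APPPS1ΔE9 mice at 6 months on placebo, 0 of 22 at 6 months on anle138b, 9 of 22 at 10 months on placebo and 12 of 22 at 10 months on anle138b, and 0 were called lower. Of all genes tested, 0.0715%, 0.0352%, 0.324% and 0.694% were called higher in the same order. The median log2 differences of the 22 genes were 0.257, 0.144, 0.606 and 0.908, beside medians of all genes within 0.0044 of 0. Cst7, an inhibitor of cathepsins, differed by 5.12 at 6 months on placebo and by 6.33 and 6.14 at 10 months. At 6 months on anle138b Cst7 was not called, with 1.99 ± 1.19 CPM in APPPS1ΔE9 and 0.102 ± 0.0973 CPM in WT mice (SD, n = 4 each). Itgax was not called there either, with 0.903 ± 0.464 and 0.371 ± 0.053 CPM (SD, n = 4 each). Clec7a, a receptor for fungal glucans, differed by 2.26, 3.49 and 3.52, and Itgax, an integrin, by 2.41, 2.87 and 3.65 in the same comparisons.

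Of 13 homeostatic microglial genes, 0 were called higher at 6 months on either chow. At 10 months on placebo 2 of 13 were called higher, among them Fcrls. On anle138b 4 of 13 were, among them Cx3cr1, Csf1r and Fcrls. Of all genes tested at 10 months, 0.324% were called higher on placebo and 0.694% on anle138b. Set against the mean log2 CPM of these 13 genes, Mpeg1 was 0.17 ± 0.12 and 0.34 ± 0.07 above it in 6-month WT mice on placebo and anle138b (SD, n = 4 each). In APPPS1ΔE9 mice it was 0.78 ± 0.12 and 0.44 ± 0.15 above it at 6 months (SD, n = 4 each). At 10 months it was 1.08 ± 0.19 above it on placebo (SD, n = 5) and 1.12 ± 0.13 on anle138b (SD, n = 7), and 0.32 ± 0.06 and 0.27 ± 0.11 in WT mice (SD, n = 5 each). In whole hippocampus more cells of a type and more RNA per cell cannot be told apart.

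Markers of other blood and border cells were looked at in the same way. Markers of B and plasma cells, where Tent5c is best known, summed to 1.48 to 5.01 CPM over 9 genes in all mice, and those of T and NK cells to 0.515 to 1.59 CPM over 9 genes. The 8 markers of border macrophages summed to 21 to 45.3 CPM, with 0 called between genotypes in the 4 comparisons. Erythroid genes had 0 calls between genotypes too. At most 0.694% of all genes tested were called higher there, so 0 calls in short lists say little. Of 13 interferon-stimulated genes 1, the transcription factor Irf8, was called higher at 10 months on each chow, by 1.0 on placebo and 0.85 on anle138b.

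Partners of matriptase were looked at in the same genotype comparisons, where 0.0352% to 0.694% of all genes tested were called higher. Of 23 genes of its axis, 14 were tested between genotypes in each comparison, and 1 was called, namely Plau, which encodes urokinase and was higher by 1.13 at 10 months on anle138b (edgeR adjusted p = 0.0109). Spint1 had group means of 2.43 to 3.25 CPM. Spint2 had 20.1 to 33.2 CPM at 6 months and 12.6 to 14.8 CPM at 10 months, and it was called lower with age in WT mice on placebo (log2 difference -1.03) and on anle138b (-1.15). In those comparisons 33.4% and 28.3% of all genes were called and all 9 choroid plexus markers fell, and at 6 months Spint2 was lowest in the group with 1 of 4 high libraries. Neither Spint1 nor Spint2 was called between genotypes. Prss8 was at 0.284 to 0.626 CPM, and F2rl1, a protease-activated receptor, at 0.154 to 0.225 CPM apart from the 6-month WT anle138b group, where 1 mouse had 8.19 CPM.

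Of 15 other genes of poly(A) polymerases and their partners, 12 were tested between genotypes and 0 were called. At most 0.694% of all genes tested were called higher in these comparisons, so 0 calls in a short list say little. Tent5a, which encodes a related polymerase, differed by 0.02 and -0.02 at 6 months and by 0.3 and 0.31 at 10 months on placebo and anle138b. The Tent5c partners Fndc3a and Fndc3b had group means of 62.7 to 75.1 and 21.9 to 27.8 CPM. Of 11 other genes with the pore-forming domain of Mpeg1, 5 or 6 were tested and 0 were called between genotypes. Prf1, the perforin of cytotoxic lymphocytes, had group means of at most 0.0409 CPM.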

How the data were processed

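Hippocampal RNA was extracted with TRIzol, and poly(A)-selected TruSeq libraries were sequenced. The authors aligned the reads to mm10 with STAR and deposited raw read counts per Ensembl gene, made with HTSeq. The annotation release and strand setting were not given in the sources used here. Each mouse is 1 library, and the labels give 8 groups. The 3 members and all gene lists were chosen with earlier results of these data known.

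From the counts, edgeR 4.0.16 in R 4.3.3 was run for each comparison on the groups it compares: filterByExpr with a minimum count of 10 and a total of 15, TMM scaling, a robust quasi-likelihood fit, and Benjamini-Hochberg adjustment over all genes tested. A gene was called at an adjusted p under 0.1. Intervals use the standard error and the residual degrees of freedom, and are not adjusted for the number of genes tested. Levels used 1 TMM scaling over 38 mice, and log2 CPM a prior count of 2. Gene positions and lengths came from GENCODE M21, which matched 48349 of 48709 identifiers. Promoters came from RefSeq, GRCm38.p6. The code was tested on simulated data.

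Named genes were the members, list genes called between genotypes (up to 4 a list and comparison by adjusted p), Spint1, Spint2, Prss8, F2rl1, Tent5a, Fndc3a, Fndc3b, Prf1, App, and the 5 genes most correlated with each member. Genes closest in low choroid plexus libraries were added after seeing the data. Some genes that this rule names are not reported here. Alternatives were DESeq2 1.42.0, RLE scaling, no filter, a threshold of 0.05, Y-linked expression as a covariate, mice without Xist, all groups in 1 fit, a replicate block, a shared lane number and leaving out each mouse. Choroid plexus markers as a covariate and low libraries only were chosen after seeing the data. All 75 pairs of mice within a group differed by more than counting noise (chi-square per degree of freedom at least 3.17).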

Additional observations from a re-analysis of the deposited data

Results flagged for a closer look

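The highest and lowest mouse of each gene was compared with the rest of its group in 24 groups of 4 to 7 mice, where chance gives about 1 in 20. In 2 groups 1 mouse stood apart. Tent5c in APPPS1ΔE9 anle138b replicate 4 of the pre-plaque group was 4.89 CPM, against 7.47 to 7.53 CPM in the other 3 mice. This was the only mouse of its group low in choroid plexus markers, with 176 CPM against at least 6114 CPM. Mpeg1 in WT placebo replicate 3 of the pre-plaque group was 33.9 CPM, against 32.4 to 32.5 CPM in the others, and it was the only mouse of that group without Xist. The part of either feature was not tested.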

How the results depend on the processing

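Of 243 values of tested comparisons under other settings, 218 kept their direction and side of the threshold, 3 lost the call, 6 gained one and 16 changed sign. Of 102 genotype values 98 moved by less than the replicate spread. The cause of a change was not tested. Values are log2 differences.

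With choroid plexus markers as a covariate, age in WT placebo mice gave 0.201 (St14), 0.07 (Tent5c) and 0.046 (Mpeg1), age in WT anle138b mice 0.308 (St14) and 0.06 (Tent5c), and chow in post-plaque WT mice 0.0 (Tent5c) and 0.038 (Mpeg1). With low choroid plexus libraries only, age on placebo gave 0.093 (St14), 0.007 (Tent5c) and 0.007 (Mpeg1), age on anle138b -0.275 (Tent5c), and genotype at 6 months on placebo 0.733 (Tent5c). Both were chosen after seeing the data. In mice without Xist, chow in post-plaque WT mice gave -1.0 (St14) and -0.326 (Mpeg1) with 2 mice a group, both called, age on anle138b -1.343 (St14) and -0.33 (Mpeg1), age on placebo 0.058 (Mpeg1), and genotype 0.439 (St14, 6 months, placebo) and 2.636 (St14, 10 months, anle138b). Y-linked expression as a covariate gave 0.421 for St14 between genotypes at 6 months on placebo. Without a filter on low counts St14 in pre-plaque APPPS1ΔE9 mice was called at -1.016. Mpeg1 with age on placebo was 0.007 in DESeq2, 0.006 with RLE scaling and 0.082 within a shared lane number. Within a shared lane number, Tent5c was -0.599 with age on placebo, with 1 mouse at 10 months. For chow in post-plaque APPPS1ΔE9 mice it was -0.002, with 1 mouse on anle138b. The same sample and lane numbers recur in the titles of both cohorts, so a lane number shared between ages need not be 1 lane. With all groups in 1 fit St14 with age on anle138b was called at -0.7.

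The replicate numbers did not pair the mice in any comparison. With the number as a block, Tent5c with age on placebo was -0.532 (edgeR adjusted p = 0.101) and St14 0.003. It changed no other call of the 3 genes. Genes called went from 5680 to 3469 and 4844 to 2600 with age, and from 55 to 25 and 124 to 20 between genotypes at 10 months (placebo and anle138b).

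Leaving out 1 mouse at a time, chow values ran from -0.285 to 0.066 (St14, pre-plaque WT), -0.114 to 0.002 (Mpeg1, post-plaque WT), -1.139 to -0.826 (St14, pre-plaque APPPS1ΔE9) and -0.154 to 0.106 (Tent5c, pre-plaque APPPS1ΔE9). Age on placebo ran from -0.157 to 0.064 (St14), -0.719 to -0.432 (Tent5c) and -0.037 to 0.042 (Mpeg1). Age on anle138b ran from -0.868 to -0.526 (St14) and -0.239 to -0.117 (Mpeg1). On anle138b St14 was called without 6-month replicate 4 or 10-month replicate 3, and Mpeg1 without 10-month replicate 5.

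For chow in pre-plaque APPPS1ΔE9 mice edgeR called 9 genes, DESeq2 204, edgeR without a filter 120, with Y-linked expression 126, with low choroid plexus libraries 19 and with all groups 3. Between genotypes DESeq2 called 139 against 12 and 47 against 8 at 6 months, and 108 against 55 and 189 against 124 at 10 months. With age, choroid plexus markers as a covariate gave 1422 and 538, low libraries 663 and 394, and a shared lane number 2579 on anle138b. Between genotypes at 6 months on placebo no filter gave 110, Y-linked expression 4 and all groups 35, and the block gave 13 on anle138b. At 10 months choroid plexus markers gave 17 and Y-linked expression 14 on placebo, and Y-linked expression gave 270 and a threshold of 0.05 gave 77 on anle138b. Against 0, the interaction had 22 and 2 calls in DESeq2 and 4 in low libraries at 6 months, and chow in WT mice 1 in a shared lane in each cohort. In mice without Xist, 5550 genes were called against 0 for chow in post-plaque WT mice, and between genotypes 7 against 12 (6 months, placebo), 8 against 55 (10 months, placebo) and 51 against 124 (anle138b). Leaving out 1 mouse gave 6 to 317 for chow in pre-plaque APPPS1ΔE9 mice, 0 to 22 for the pre-plaque interaction, and between genotypes 6 to 205 and 9 to 44 at 6 months and 37 to 67 and 63 to 151 at 10 months on placebo and anle138b. St14 is limited by depth.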
